A study of Mus musculus with 24 samples.

Results

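The comparison set 8 arrays of endothelial cells from Wnt-medulloblastomas against 8 arrays of endothelial cells from Shh-medulloblastomas, which made 16 of the 24 arrays of the series. Arrays were taken by their sample labels, and the remaining 8 arrays, of endothelial cells from adult hindbrain, served to place each tumour above or below normal tissue. Medulloblastoma is a malignant tumour of the cerebellum and dorsal brainstem, and mouse models exist for its Wnt and Shh forms. The question was how the transcripts of blood vessel cells differ between tumours driven by different pathways.

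In the mice with Wnt tumours, Blbp-Cre acted on 1 floxed beta-catenin allele (Ctnnb1 +/Exon3 flox), on both alleles of the p53 gene (Trp53 flox/flox) and on 1 allele of a PI3-kinase gene (Pik3ca +/flox). Blbp is the protein product of Fabp7, a gene of radial glia and neural progenitors, so Cre is driven in those cells rather than by an endothelial promoter. Shh tumours came from mice with the genotype Ptch+/-, Ink4c-/-, where Ink4c is the product of Cdkn2c, and these alleles are written without Cre, so the vessel cells of those mice would carry them too. Hindbrain came from wild type adults. The strain background was mixed in all groups, and the labels give neither the age of the tumour-bearing mice nor a date or batch. Papain released the cells from the tissue, and magnetic beads bound them through Cd105, encoded by Eng, and Cd144, encoded by Cdh5. RNA was labelled with biotin and hybridised to Affymetrix arrays, and the arrays of a group are called biological replicates.

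In canonical Wnt signalling a ligand binds a Frizzled receptor and an Lrp co-receptor, beta-catenin is spared from degradation, and it switches on target genes together with Tcf and Lef proteins. In the brain this signal from neural tissue to endothelium induces and maintains the blood-brain barrier, a state with tight junctions, many transporters and few transcytotic vesicles. Vessels outside the brain lack much of this state, and many have a fenestrated wall marked by Plvap.

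All values are log2 signals as deposited. For single genes the lowest, median and highest of the 8 arrays of a group are given, and each log2 fold change from limma stands with its standard error (±), Wnt minus Shh unless another contrast is named. A gene passed the test at a Benjamini-Hochberg adjusted p under 0.05 over 22180 genes. Array medians over all probe sets ran from 5.97 to 6.18, and 92 ERCC control probe sets, which match no mouse gene, had a 95th percentile of 5.24. Group means under 5.24 are called dim here, and fold changes against them have an uncertain size.

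Markers of several cell types differed between the tumour groups, and the plot of marker lists by array shows them. The mean of 16 endothelial markers had a lowest, median and highest value of 9.83, 10.60 and 11.04 in Wnt arrays, against 11.19, 11.45 and 11.67 in Shh arrays and 11.24, 11.47 and 11.59 in hindbrain arrays. Wnt and Shh arrays did not overlap, and Wnt arrays 1 and 8 were lowest. Both sort antigens were bright in every group. Cdh5 had 11.84, 12.52 and 12.79 in Wnt arrays, against 12.63, 12.96 and 13.03 in Shh arrays and 12.70, 12.81 and 12.99 in hindbrain arrays. Eng had 11.63, 12.08 and 12.48 in Wnt arrays, against 12.42, 12.72 and 12.87 in Shh arrays and 12.70, 12.85 and 12.92 in hindbrain arrays, and for both genes the tumour groups overlapped. Fewer cells of a type and less RNA per cell cannot be told apart in these bulk samples. A fit with the endothelial marker mean as a covariate was run for every result, and since the marker mean separated the tumour groups, this covariate and the tumour type cannot be told apart.

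**Figure D1:**
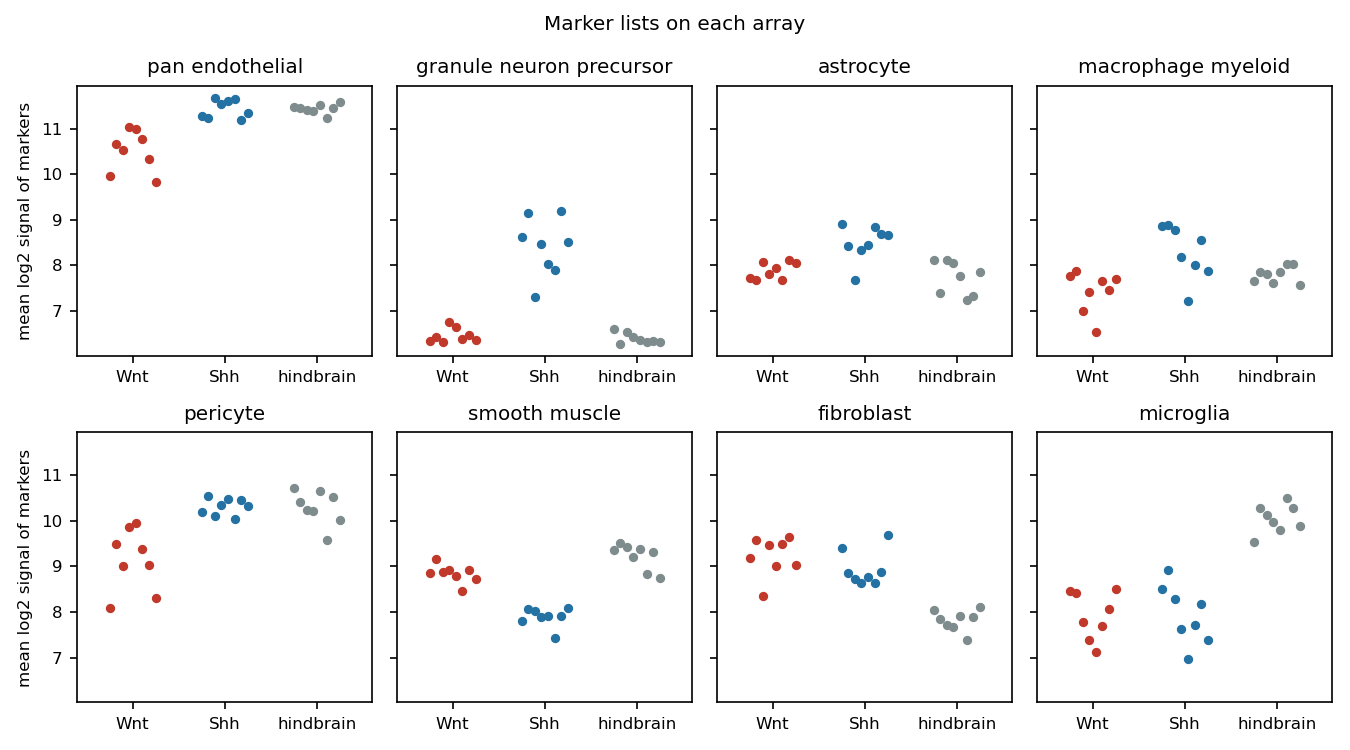
Mean log2 signal of the markers of 8 cell types on each array (vertical axis), by group (horizontal axis), each point 1 array. The endothelial mean is lower in Wnt than in Shh arrays without overlap, and the granule neuron precursor mean is higher in every Shh array (7.30 to 9.19) than in any Wnt array (6.31 to 6.76).

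The mean of 17 markers of granule neuron precursors, the cells from which Shh tumours arise, was 6.31, 6.41 and 6.76 in Wnt arrays, against 7.30, 8.50 and 9.19 in Shh arrays and 6.28, 6.36 and 6.6 in hindbrain arrays. Of these 17 markers, 1 was higher and 15 were lower in Wnt than in Shh arrays, with a median of -2.37. Atoh1, which defines granule neuron precursors, had 5.36, 5.65 and 5.82 in Wnt arrays, against 7.24, 8.55 and 10.22 in Shh arrays and 5.43, 5.72 and 6.03 in hindbrain arrays. Array 3 of the Shh group had the lowest mean of these markers and also the lowest mean of 12 astrocyte markers, with 7.68 against up to 8.92 in the other Shh arrays. Of the 12 astrocyte markers 4 were higher and 6 lower in Wnt arrays (median -0.63), Gfap (-2.53 ± 0.32) and the water channel gene Aqp4 (-2.10 ± 0.39) among the lower ones. Of 10 macrophage and myeloid markers 1 was higher and 8 were lower (median -1.12), the higher one without a call when any 1 of 11 arrays was left out, with Ms4a7 at -1.74 ± 0.49. Of 12 pericyte markers 0 were higher and 8 lower (median -0.75), Atp13a5 (-4.11 ± 0.58) and vitronectin, Vtn (-2.35 ± 0.44), the most, and 0 were lower with the endothelial covariate (Atp13a5 -2.21, adjusted p = 0.101, and Vtn 0.11, adjusted p = 0.909). Of 6 smooth muscle markers 5 were higher and 0 lower (median 1.09), with calponin, Cnn1, at 1.66 ± 0.30 (1.20, adjusted p = 0.116, with the covariate, where 2 of the 6 were higher). Of 8 lymphocyte markers 7 were lower (3 to 7 when single arrays were left out), of 11 microglia markers 4 were higher, Sall1 the most (1.66 ± 0.24), and 1 was lower, Fcrls (-2.28 ± 0.45), and of 10 fibroblast markers 3 were higher and 3 lower. Of 13 oligodendrocyte lineage markers 1 was higher (2 or 3 when any 1 of 5 arrays was left out) and 5 were lower (median -0.1). The higher one had 0.60 ± 0.11, and Olig2 was among the lower ones (-2.55 ± 0.33). Of 11 neuron markers 3 were higher and 3 lower (median -0.08). The strongest riser of the neuron markers had 2.73 ± 0.47, and Snap25 was among the lower ones (-3.19 ± 0.38). Of 7 choroid plexus and ependyma markers 2 rose, Clic6 (4.04 ± 0.35) and Otx2 (3.79 ± 0.46), and of 10 hindbrain progenitor markers 3 rose, Lhx9 the most (4.19 ± 0.53), and 4 fell. With the endothelial covariate 4 astrocyte, 5 microglia, 5 macrophage and myeloid, 2 lymphocyte, 3 neuron, 3 oligodendrocyte lineage and 12 granule neuron precursor markers were lower and 0 of each were higher. The same fit left 2 fibroblast markers higher and 1 lower. The part that other cell types had in the gene results was not tested.

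Of the 22180 genes, 7946 (35.8%) passed the test between the tumours, 3996 (18.0%) higher and 3950 (17.8%) lower in Wnt than in Shh arrays. At least 2-fold differences were found in 1038 higher (4.68%) and 773 lower genes (3.49%). In 1285 of the higher (5.79%) and 959 of the lower genes (4.32%) the 2 sets of 8 arrays did not overlap. Counts of Wnt against Shh in every gene list, above and below, are to be read against these shares of all genes. Counts with the endothelial covariate have their own background, given at the end of this paragraph. The median log2 fold change of all genes was -0.0019. Adding the endothelial covariate left 1814 of the 22180 genes higher and 1685 lower. List counts with that covariate are to be read against these smaller numbers.

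The largest rise was that of Mybpc1, a myosin-binding protein, with 11.53, 11.88 and 12.43 in Wnt arrays, against 4.67, 5.32 and 7.39 in Shh arrays and 4.92, 6.10 and 7.10 in hindbrain arrays. Every Wnt array lay far above every Shh array (6.34 ± 0.35, adjusted p = 4.26e-13). Wif1, a secreted protein that binds Wnt ligands, followed with 6.27 ± 0.29 and the ligand gene Wnt16 with 6.22 ± 0.23. The protease inhibitor A2m (5.73 ± 0.45), the proton channel Otop3 (5.49 ± 0.15), the ATP-gated channel P2rx2 (5.46 ± 0.29), the neurokinin receptor Tacr3 (5.03 ± 0.30) and the thyroid hormone-binding crystallin Crym (4.98 ± 0.33) were also among the 12 largest rises, as were Fndc3c1 (5.27 ± 0.31) and the long noncoding RNA Rmst (4.92 ± 0.30). None of these rises overlapped between the tumours, and Tacr3 and Fndc3c1 were dim in Shh arrays.

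Among the falls, Far2, a fatty acyl-CoA reductase, led with 5.67, 6.76 and 8.66 in Wnt arrays, against 10.46, 11.58 and 12.11 in Shh arrays and 11.21, 11.52 and 11.79 in hindbrain arrays. Wnt arrays were the low ones, and Shh arrays spread around the hindbrain range (-4.53 ± 0.34, adjusted p = 9.94e-11). The proton pump subunit Atp6v0d2 (-4.38 ± 0.42) and the eosinophil chemokine Ccl11 (-3.85 ± 0.26) were also among the 12 largest falls, and Atp6v0d2 was dim in Wnt and hindbrain arrays. The neuronal genes Dcx (-3.76 ± 0.25) and Nhlh1 (-3.56 ± 0.29) were dim in Wnt and hindbrain arrays too, and both are markers of granule neuron precursors, whose levels are given above. Ackr1, a chemokine-binding receptor of venules, had 5.92, 6.61 and 7.69 in Wnt arrays, against 9.16, 11.12 and 11.56 in Shh arrays and 6.01, 6.54 and 7.35 in hindbrain arrays. Shh arrays alone were high in Ackr1, Ccl11 and Atp6v0d2, without overlap with Wnt arrays.

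A subset of genes differed between the tumours and moved to opposite sides of hindbrain, meaning that Wnt minus hindbrain and Shh minus hindbrain both passed the test with opposite signs. There were 423 of them (1.91% of all genes), 200 with Wnt above and Shh below hindbrain (0.902%) and 223 with Wnt below and Shh above (1.01%). Both changes were at least 2-fold in 16 genes of the first pattern and 17 of the second. All 423 passed the test between the tumours as well, which follows nearly from the rule, and the median Wnt minus Shh was 1.11 in the first pattern and -1.15 in the second. Both contrasts share the hindbrain arrays. Without Wnt arrays 1 and 8, 365 genes were on opposite sides, 323 of them from the 423. Adding the endothelial covariate left 177, of which 128 came from the 423.

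**Figure D2:**
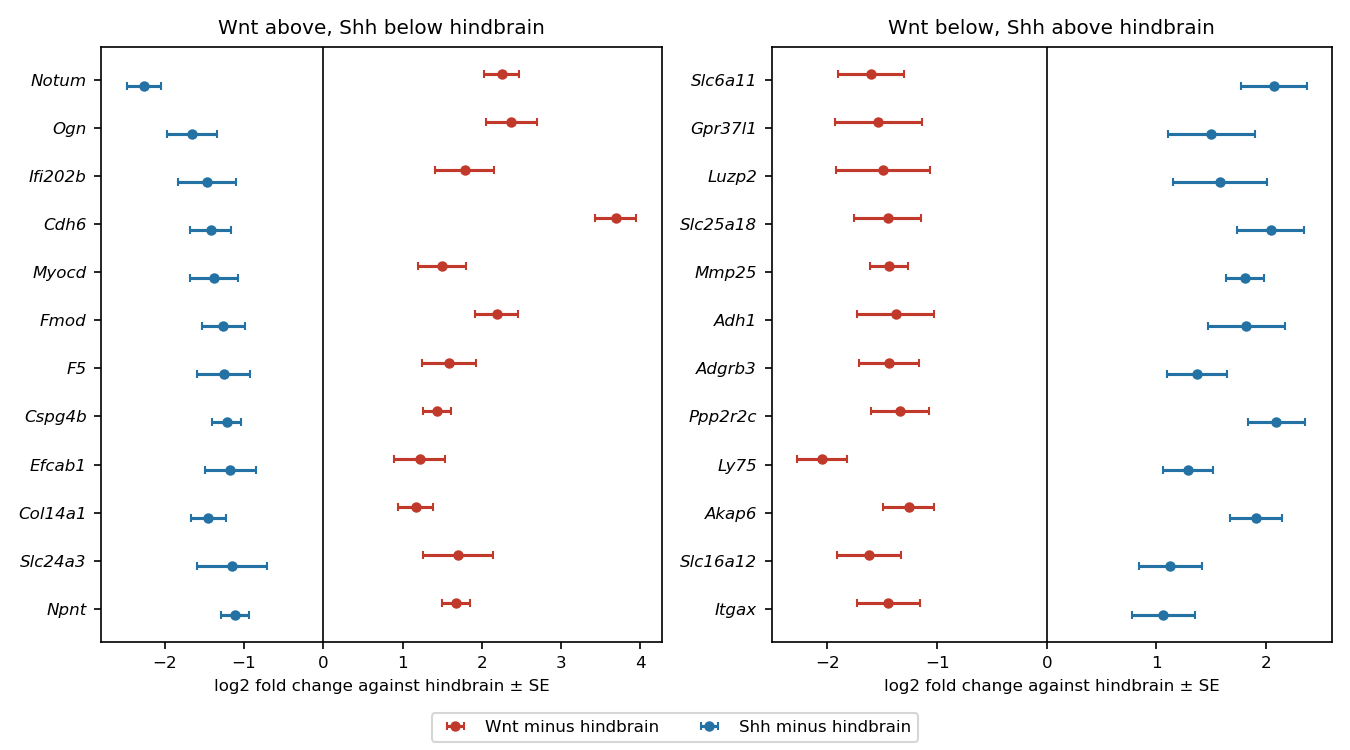
Log2 fold changes against hindbrain (horizontal axis, with standard errors) of the 12 named genes with the largest smaller change in each pattern, one gene per line, Wnt minus hindbrain and Shh minus hindbrain in 2 colours. Notum lies about as far above hindbrain in Wnt arrays (2.25) as below it in Shh arrays (-2.26).

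Notum headed the first pattern. It encodes a secreted carboxylesterase that removes the lipid from Wnt ligands and so inactivates them, and it is a target gene of the pathway. Its levels were 10.64, 11.28 and 11.999 in Wnt arrays, against 6.30, 6.601 and 7.82 in Shh arrays and 8.80, 9.05 and 9.46 in hindbrain arrays. The 3 groups did not overlap, with Wnt arrays highest and Shh arrays lowest (2.25 ± 0.22 in Wnt minus hindbrain, -2.26 ± 0.22 in Shh minus hindbrain). Axin2, the scaffold of the beta-catenin destruction complex and a feedback target, had 10.16, 10.56 and 10.90 in Wnt arrays, against 8.07, 8.59 and 9.06 in Shh arrays and 9.22, 9.34 and 9.37 in hindbrain arrays. Again no array of 1 group reached the range of another (1.21 ± 0.12 and -0.72 ± 0.12 against hindbrain). Tnfrsf19, a receptor of the tumour necrosis factor family induced by beta-catenin, had 12.40, 12.80 and 12.94 in Wnt arrays, against 9.02, 10.50 and 10.90 in Shh arrays and 11.01, 11.28 and 11.45 in hindbrain arrays. Its fold changes against hindbrain were 1.48 ± 0.18 for Wnt and -0.91 ± 0.18 for Shh.

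Of 19 genes of BMP and TGF-beta signalling 2 were in the first pattern, which held 0.902% of all genes. They were the ligand genes Bmp2 and Tgfb2. Bmp2 had 8.57, 9.91 and 10.68 in Wnt arrays, against 5.46, 5.87 and 6.69 in Shh arrays and 6.50, 6.92 and 7.34 in hindbrain arrays. The tumour groups were far apart (3.81 ± 0.25, adjusted p = 9.76e-12), while Shh and hindbrain arrays overlapped at 1 edge (-0.96 ± 0.25 against hindbrain, adjusted p = 0.0034). Tgfb2 had 10.72, 11.48 and 11.94 in Wnt arrays, against 9.05, 9.27 and 9.69 in Shh arrays and 9.68, 10.29 and 10.81 in hindbrain arrays. Wnt arrays lay above and Shh arrays below (1.24 ± 0.16 and -0.88 ± 0.16 against hindbrain), and hindbrain arrays touched the edge of both ranges. The BMP antagonist Nog (1.26 ± 0.20 in Wnt, -0.59 ± 0.20 in Shh) was on the same sides, but its change in Wnt arrays did not pass with the endothelial covariate (0.51, adjusted p = 0.241).

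**Figure D3:**
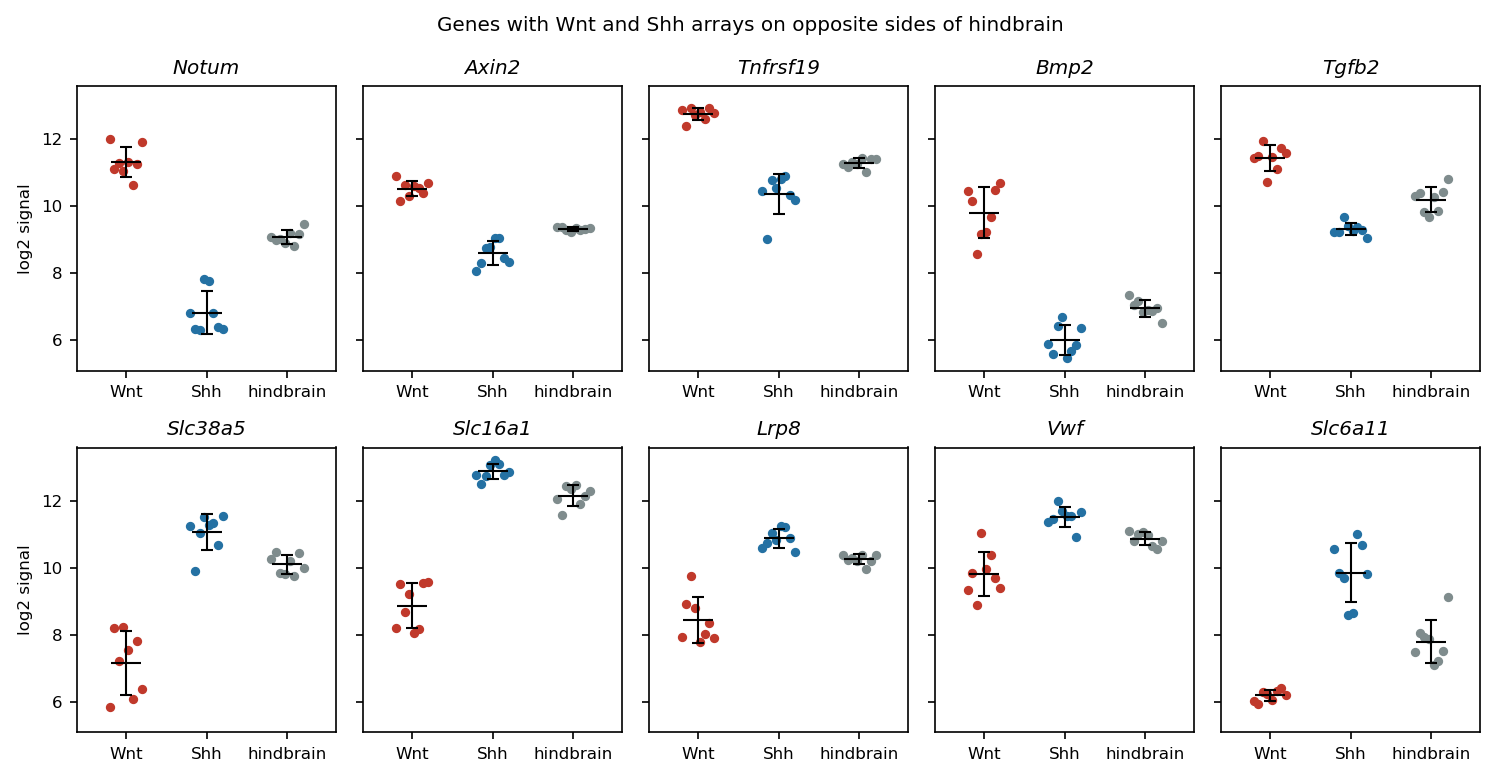
Log2 signal (vertical axis) on each array of 10 genes whose tumour groups lie on opposite sides of hindbrain, by group (horizontal axis), with the mean and SD of 8 arrays in black. In the upper row the means are highest in Wnt and lowest in Shh arrays, and in the lower row the means are highest in Shh and lowest in Wnt arrays.

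Cell adhesion and matrix genes were among the rest of the first pattern. Cdh6, a classical cadherin, had 11.15, 11.48 and 12.48 in Wnt arrays, against 5.65, 6.47 and 7.93 in Shh arrays and 7.35, 7.93 and 8.87 in hindbrain arrays. Wnt and Shh arrays were separated by more than the whole spread of either (5.11 ± 0.26, adjusted p = 1.23e-13). Against hindbrain the small leucine-rich proteoglycans Ogn (2.37 ± 0.32 in Wnt, -1.65 ± 0.32 in Shh) and Fmod (2.19 ± 0.27, -1.26 ± 0.27), the fibril-associated collagen Col14a1 (1.17 ± 0.22, -1.45 ± 0.22) and the integrin ligand Npnt (1.68 ± 0.18, -1.11 ± 0.18) changed in opposite directions. Ogn is also a fibroblast marker. Coagulation factor V, F5, gave 1.59 ± 0.34 and -1.25 ± 0.34, the interferon-inducible Ifi202b 1.78 ± 0.37 and -1.47 ± 0.37, the potassium-dependent sodium/calcium exchanger Slc24a3 1.701 ± 0.44 and -1.15 ± 0.44, Cspg4b 1.43 ± 0.18 and -1.22 ± 0.18, and Efcab1 1.22 ± 0.32 and -1.17 ± 0.32. Shh means of Ifi202b, Cspg4b and Efcab1 were dim. With the endothelial covariate the Wnt changes of Ifi202b (0.35, adjusted p = 0.732) and Efcab1 (1.14, adjusted p = 0.177) did not pass and that of Slc24a3 turned sign (-0.76, adjusted p = 0.292), and the Shh change of Slc24a3 was not called when any 1 of 14 arrays was left out. The CDK inhibitor Cdkn1c gave 1.03 ± 0.17 and -1.36 ± 0.17. Genes of contractile cells were found here too, the coactivator Myocd (1.501 ± 0.30, -1.38 ± 0.30) and myosin light chain kinase, Mylk (0.96 ± 0.13, -0.56 ± 0.13). Mylk was the only 1 of the 6 smooth muscle markers on opposite sides, where 1.91% of all genes were. Against hindbrain 1 of these 6 was higher and 2 were lower in Wnt arrays, where 23.2% of all genes were higher and 22.0% lower. In Shh arrays 0 were higher and 5 lower, where 18.9% of all genes were higher and 18.9% lower. The Wnt change of Myocd did not pass with the endothelial covariate (0.023, adjusted p = 0.98). The guidance ligand Slit3 (0.55 ± 0.17, -0.87 ± 0.17) and the Notch target Hey2 (0.54 ± 0.15, -1.06 ± 0.15) had small Wnt changes that did not pass with that covariate either (0.76, adjusted p = 0.0767, and 0.18, adjusted p = 0.702), and Slit3 did not pass after quantile normalization (0.42, adjusted p = 0.0516).

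In the second pattern, genes of brain endothelium stood beside genes of glia, neurons and leukocytes. Slc16a1, the transporter of lactate and ketone bodies, had 8.04, 8.94 and 9.56 in Wnt arrays, against 12.50, 12.83 and 13.20 in Shh arrays and 11.57, 12.21 and 12.48 in hindbrain arrays. The 3 ranges did not overlap, although Shh and hindbrain arrays nearly met, and Wnt arrays were far below (-4.01 ± 0.21, adjusted p = 2.21e-13). Slc38a5, a glutamine transporter of brain veins and capillaries, had 5.83, 7.38 and 8.23 in Wnt arrays, against 9.89, 11.26 and 11.55 in Shh arrays and 9.76, 10.10 and 10.46 in hindbrain arrays. Shh arrays overlapped hindbrain arrays at their low end, and Wnt arrays overlapped neither (-2.94 ± 0.31 and 0.97 ± 0.31 against hindbrain). Lrp8, a receptor for apolipoprotein E and reelin, had 7.79, 8.18 and 9.77 in Wnt arrays, against 10.46, 10.85 and 11.26 in Shh arrays and 9.95, 10.27 and 10.38 in hindbrain arrays. No ranges of Lrp8 overlapped (-2.45 ± 0.21). Vwf, the clotting protein that endothelium stores, had 8.88, 9.77 and 11.04 in Wnt arrays, against 10.92, 11.54 and 11.98 in Shh arrays and 10.57, 10.90 and 11.08 in hindbrain arrays. For Vwf the tumour groups overlapped, and neither its difference between the tumours (-0.77, adjusted p = 0.0588) nor that of Wnt against hindbrain (-0.12, adjusted p = 0.835) passed with the endothelial covariate. The nuclear receptor Ppard (-1.13 ± 0.11 in Wnt, 0.40 ± 0.11 in Shh) and the Notch feedback gene Nrarp (-0.64 ± 0.17, 0.68 ± 0.17) followed, Nrarp without a Wnt call under the covariate (-0.20, adjusted p = 0.701).

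Growth, metabolic and protease genes of this pattern included Igf2, an insulin-like growth factor, with 7.07, 7.70 and 8.51 in Wnt arrays, against 9.59, 9.98 and 10.88 in Shh arrays and 8.82, 9.26 and 9.65 in hindbrain arrays. Wnt arrays were lowest and Shh arrays highest, and hindbrain arrays overlapped only the Shh range (-2.40 ± 0.19). Mmp25, a membrane-anchored matrix metalloproteinase, had 5.93, 6.39 and 7.36 in Wnt arrays, against 9.37, 9.78 and 10.09 in Shh arrays and 7.64, 7.97 and 8.29 in hindbrain arrays without overlap of any groups. The alcohol dehydrogenase Adh1 gave -1.38 ± 0.35 in Wnt and 1.82 ± 0.35 in Shh, the phosphofructokinase Pfkp -0.48 ± 0.16 and 0.74 ± 0.16, and the monocarboxylate transporter family member Slc16a12 -1.62 ± 0.29 and 1.13 ± 0.29. With the endothelial covariate the Wnt changes of these 3 genes turned sign without passing the test (0.22 for Adh1, 0.12 for Pfkp and 0.061 for Slc16a12). The Wnt change of Pfkp also did not pass without Wnt arrays 1 and 8 (-0.33, adjusted p = 0.116). The adhesion gene Cdh4, an R-cadherin of neural tissue, gave -0.89 ± 0.20 and 0.74 ± 0.20.

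Slc6a11, a GABA transporter of astrocytes, had 5.93, 6.22 and 6.41 in Wnt arrays, against 8.60, 9.83 and 11.01 in Shh arrays and 7.10, 7.70 and 9.13 in hindbrain arrays. Wnt arrays were lowest and Shh arrays overlapped the top of the hindbrain range (-3.67 ± 0.30, adjusted p = 5.33e-10). The glial receptor Gpr37l1 (-1.54 ± 0.40 in Wnt, 1.502 ± 0.40 in Shh), the mitochondrial glutamate carrier Slc25a18 (-1.45 ± 0.30, 2.04 ± 0.30) and Luzp2 (-1.49 ± 0.43, 1.58 ± 0.43) were on the same sides. So were the adhesion receptor Adgrb3 (-1.44 ± 0.27, 1.37 ± 0.27), the protein phosphatase subunit Ppp2r2c (-1.34 ± 0.26, 2.10 ± 0.26), the kinase anchor Akap6 (-1.26 ± 0.24, 1.91 ± 0.24), the kainate receptor subunit Grik2 (-1.05 ± 0.31, 2.56 ± 0.31) and the axonal adhesion protein Cntn2 (-0.99 ± 0.23, 1.75 ± 0.23), which is a granule neuron precursor marker. Adgrb3, Akap6 and Grik2 were dim in Wnt arrays. With the endothelial covariate the Wnt changes of Gpr37l1 (-1.63, adjusted p = 0.106), Slc25a18 (-1.38, adjusted p = 0.0707), Luzp2 (-0.83, adjusted p = 0.508), Adgrb3 (-1.18, adjusted p = 0.0812) and Grik2 (-1.34, adjusted p = 0.0792) did not pass. Itgax, an integrin of dendritic cells and macrophages (-1.44 ± 0.29, 1.06 ± 0.29), and Ly75, an endocytic receptor (-2.05 ± 0.23, 1.29 ± 0.23), completed the named genes. Among Shh arrays Ly75 was lowest in array 2 (9.32), where the mean of the myeloid markers was highest (8.89). Ly75 was highest in Shh array 3 (10.87), where that mean was 8.78. Itgax was highest in Shh array 1 (9.92), where that mean was 8.87. A relation of either gene to the myeloid markers was not tested. Beside these genes, the mean of the astrocyte markers ran from 7.68 to 8.12 in Wnt arrays, against 7.68 to 8.92 in Shh arrays and 7.23 to 8.11 in hindbrain arrays, and that of the myeloid markers from 6.54 to 7.88 in Wnt arrays, against 7.21 to 8.89 in Shh arrays and 7.56 to 8.03 in hindbrain arrays. The myeloid ranges overlapped between the tumours, and the astrocyte ranges overlapped only through Shh array 3 (7.68). All other Shh arrays had astrocyte means from 8.35 to 8.92, above every Wnt array. The ranges of the granule neuron precursor markers did not overlap. What part these cell types had in these values was not tested. Without Shh array 3, which had the lowest astrocyte and precursor markers, 415 genes were on opposite sides, 370 of them from the 423.

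Secreted antagonists of Wnt signalling were mostly higher in Wnt tumours. The 15 measured gave 9 risers, 1 faller and 5 without a call, with a median of 1.63, and 8 of the 9 risers did not overlap between the tumours. Wif1 had 12.52, 12.92 and 13.06 in Wnt arrays, against 5.78, 6.39 and 9.03 in Shh arrays and 5.97, 6.25 and 6.32 in hindbrain arrays. Every Wnt array exceeded every Shh array, and Shh array 4 was the high one of its group. Among the 12 largest rises this array was also highest of the Shh group in Mybpc1, Wnt16, A2m, Otop3, Cdh6, Tacr3 and Rmst. Its A2m signal was 10.91 and its Rmst signal 8.29. Other Shh arrays were highest in P2rx2, Fndc3c1, Crym and Fzd10. Sostdc1, which binds Lrp co-receptors and BMP ligands, had 10.20, 11.51 and 12.01 in Wnt arrays, against 6.05, 6.66 and 7.31 in Shh arrays and 6.06, 6.47 and 9.34 in hindbrain arrays (4.78 ± 0.35). Dkk1, an inhibitor of Lrp co-receptors, had 6.07, 7.48 and 9.75 in Wnt arrays, against 5.39, 5.64 and 5.998 in Shh arrays and 5.49, 5.97 and 6.21 in hindbrain arrays. All Wnt arrays were above all Shh arrays, with a wide spread among them (2.08 ± 0.36, adjusted p = 5.08e-05). Dkk4, of the same family, gave 2.66 ± 0.37. Draxin, an axon guidance protein that also binds Lrp co-receptors, was the antagonist that fell (-2.66 ± 0.24), and 2 or 3 members were lower when any 1 of 7 arrays was left out.

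Targets of beta-catenin were higher as well. The 17 measured held 11 risers, 1 faller and 5 without a call, with a median of 0.71, and 8 of the risers did not overlap. Adding the endothelial covariate left 8 higher and 0 lower (median 0.46). The member that fell was Bambi, a decoy receptor for BMP and TGF-beta ligands (-0.39 ± 0.15), and it was not called when any 1 of 12 arrays was left out. Rnf43, a ubiquitin ligase that removes Frizzled receptors, had 9.94, 10.59 and 10.86 in Wnt arrays, against 5.83, 6.39 and 7.64 in Shh arrays and 5.83, 6.22 and 6.41 in hindbrain arrays. The zinc finger factor Sp5 had 9.22, 9.94 and 10.47 in Wnt arrays, against 6.02, 6.71 and 7.19 in Shh arrays and 6.56, 6.70 and 6.91 in hindbrain arrays. In both genes Shh arrays spread beyond the hindbrain range while Wnt arrays stood apart above both (3.94 ± 0.19 and 3.23 ± 0.15). Lef1, which binds DNA together with beta-catenin, had a small difference (0.32 ± 0.12, adjusted p = 0.0441), and its call was lost in 17 of 26 alternatives, 10 of them leaving out a single array.

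The sequences upstream of Sp5, Tnfrsf19 and Dkk1 are shown because each holds the hexamer CTTTGA, the core of the site that Tcf and Lef proteins bind, or its reverse complement TCAAAG, printed in capitals. They run 5′ to 3′ along the gene over the 250 bases before the transcription start, from RefSeq on GRCm38.p6.

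Sp5: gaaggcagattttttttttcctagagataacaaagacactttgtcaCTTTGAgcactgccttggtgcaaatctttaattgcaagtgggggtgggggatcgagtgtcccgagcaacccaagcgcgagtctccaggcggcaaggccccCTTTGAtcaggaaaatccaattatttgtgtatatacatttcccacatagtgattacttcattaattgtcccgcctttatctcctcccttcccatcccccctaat

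Tnfrsf19: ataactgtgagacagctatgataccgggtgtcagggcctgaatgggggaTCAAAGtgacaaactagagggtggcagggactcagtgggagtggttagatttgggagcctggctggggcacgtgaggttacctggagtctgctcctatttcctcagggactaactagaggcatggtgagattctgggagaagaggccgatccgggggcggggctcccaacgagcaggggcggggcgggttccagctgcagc

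Dkk1: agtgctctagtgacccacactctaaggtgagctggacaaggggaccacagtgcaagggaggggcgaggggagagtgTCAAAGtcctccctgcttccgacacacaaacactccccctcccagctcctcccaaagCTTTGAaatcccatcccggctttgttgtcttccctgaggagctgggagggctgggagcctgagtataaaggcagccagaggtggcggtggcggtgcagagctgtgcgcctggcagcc

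The Sp5 stretch lies on the plus strand at chr2:70474673-70474922, that of Tnfrsf19 on the minus strand at chr14:61037988-61038237 and that of Dkk1 on the minus strand at chr19:30549497-30549746. Counted from the start site, the hexamer begins at -204 and -104 in Sp5, at -201 on the opposite strand in Tnfrsf19, and at -174 on the opposite strand and -117 in Dkk1. Of the 11 targets higher in Wnt arrays, 8 were in the promoter table with 13 windows of 300 bases, reaching 50 bases past the start, and 3 windows held the hexamer, those of Sp5, Tnfrsf19 and Lef1. Of the 9 antagonists, 5 were in the table with 5 windows, and that of Dkk1 held it. Together that is 4 of 18 windows (22.2%), against 16% of all 32851 windows. A match in these letters is a description of the sequence and not a measured binding site.

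**Figure D4:**
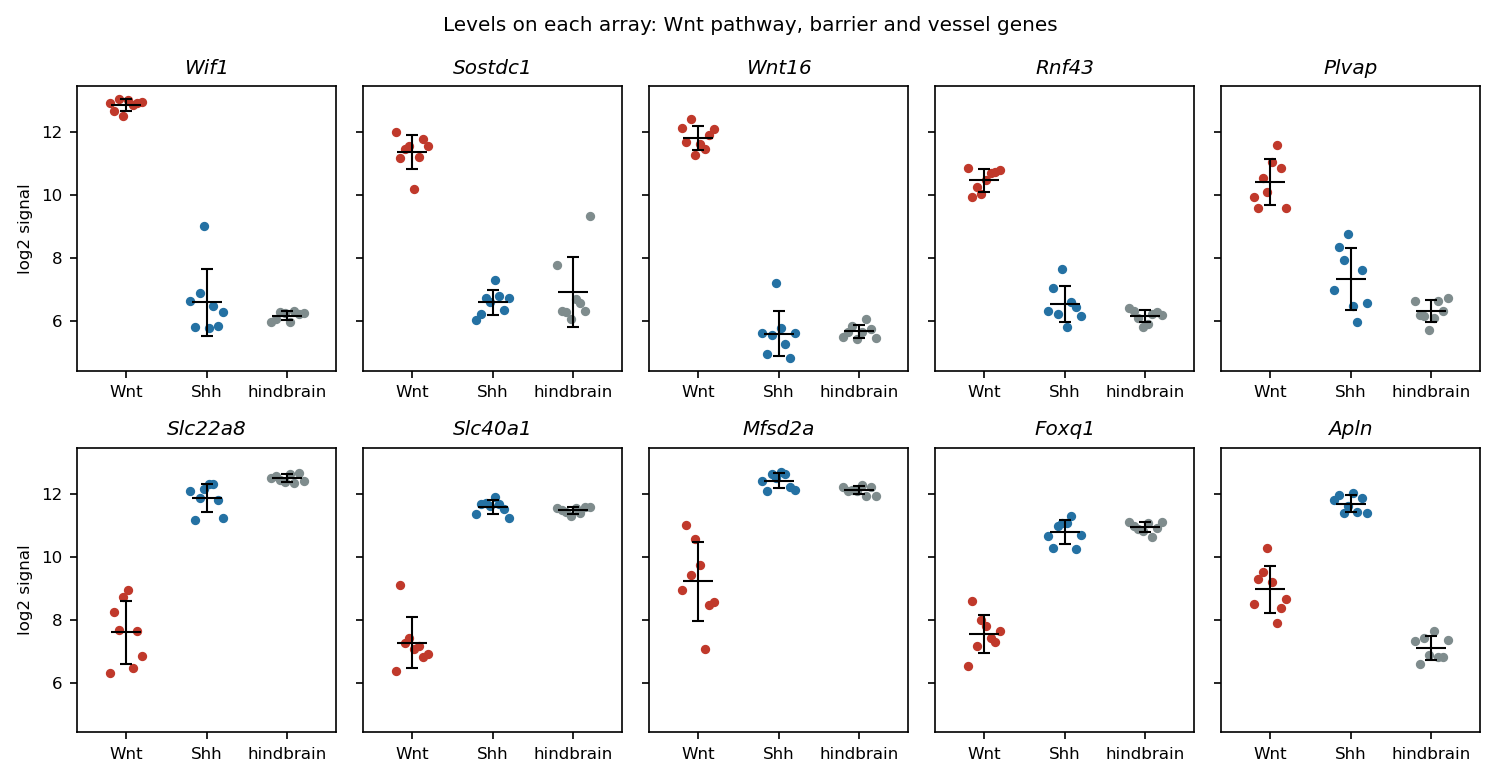
Log2 signal (vertical axis) on each array of 10 genes of the Wnt pathway, the barrier and vessel state, by group (horizontal axis), with the mean and SD of 8 arrays in black. Wif1, Sostdc1, Wnt16, Rnf43 and Plvap are high in Wnt arrays, and Slc22a8, Slc40a1, Mfsd2a and Foxq1 are low in Wnt arrays with Shh and hindbrain arrays close to each other.

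The 24 Wnt ligand and R-spondin genes gave 12 risers, 0 fallers and 12 without a call, with a median of 0.24. Wnt16 had 11.28, 11.79 and 12.41 in Wnt arrays, against 4.83, 5.58 and 7.20 in Shh arrays and 5.45, 5.64 and 6.08 in hindbrain arrays. Wnt arrays stood far above both other groups, and Shh array 4 was the highest of the remaining arrays. Rspo3, a secreted amplifier of Wnt signalling, rose by 4.70 ± 0.25 and the ligand Wnt6 by 2.22 ± 0.22. Under the endothelial covariate 5 ligand genes were higher. The 18 receptor and co-receptor genes held 9 risers, 4 fallers and 5 without a call, with a median of 0.34. The receptor Fzd10 had 8.86, 9.86 and 10.49 in Wnt arrays, against 4.56, 4.80 and 5.17 in Shh arrays and 4.15, 4.56 and 5.04 in hindbrain arrays (4.94 ± 0.20), dim in Shh and hindbrain arrays, and the co-receptor Ror2 rose too (2.46 ± 0.19). Fzd6 fell (-1.36 ± 0.15), and so did Adgra2, the co-receptor through which Wnt7 acts on brain endothelium (-0.68 ± 0.13), though not with the endothelial covariate (adjusted p = 0.999), where 1 receptor gene was lower.

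Most barrier transporters had lower levels in Wnt than in Shh endothelium. The 24 measured gave 0 risers, 21 fallers and 3 without a call, with a median of -1.93, and in 13 the groups did not overlap. Slc40a1, the iron exporter ferroportin, had 6.39, 7.12 and 9.11 in Wnt arrays, against 11.23, 11.65 and 11.90 in Shh arrays and 11.28, 11.52 and 11.59 in hindbrain arrays. Slc22a8, an organic anion transporter, had 6.29, 7.65 and 8.94 in Wnt arrays, against 11.18, 11.98 and 12.31 in Shh arrays and 12.33, 12.47 and 12.67 in hindbrain arrays. In both genes all Shh arrays were far above all Wnt arrays (-4.32 ± 0.23 and -4.26 ± 0.30). Mfsd2a, which carries omega-3 lipids and limits transcytosis, had 7.07, 9.18 and 11.01 in Wnt arrays, against 12.08, 12.46 and 12.68 in Shh arrays and 11.93, 12.10 and 12.27 in hindbrain arrays. Wnt arrays were lower and more spread out than those of the other groups (-3.19 ± 0.35, adjusted p = 6.49e-08). The glucose transporter Slc2a1 (-1.21 ± 0.19) and the efflux pump Abcb1a (-1.65 ± 0.23) fell less and overlapped between the tumours, and neither passed with the endothelial covariate (-0.43, adjusted p = 0.302, and -0.41, adjusted p = 0.279). With that covariate 1 transporter was higher and 14 were lower (median -1.27), against 0 and 21 without Wnt arrays 1 and 8 (median -1.96).

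Against hindbrain, 21 of the 24 transporters were lower in Wnt arrays (median -2.39), where 22.0% of all genes were lower, and 6 were lower and 3 higher in Shh arrays (median -0.16), where 18.9% of all genes were lower and 18.9% higher. The 3 higher ones were Slc16a1, Slc38a5 and Lrp8, described above.

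Junction genes and barrier transcription factors moved in the same direction. The 13 junction genes held 2 risers, 9 fallers and 2 without a call (median -0.98). Cldn5, the main claudin of brain endothelium, had 9.24, 9.84 and 10.95 in Wnt arrays, against 11.70, 12.11 and 12.39 in Shh arrays and 11.69, 12.06 and 12.17 in hindbrain arrays. Wnt arrays lay below both other groups, which overlapped (-2.08 ± 0.20). Lsr, a protein of tricellular junctions, fell by 2.17 on the log2 scale, and its other probe set passed with only -0.33. Marveld3, a tight junction protein, rose (1.20 ± 0.11), and the junctional adhesion molecule Jam3 rose (0.93 ± 0.16) but not with the endothelial covariate (0.71, adjusted p = 0.0825), where 1 junction gene was higher and 4 were lower (median -0.26). The 14 transcription factors gave 1 riser (Lef1), 9 fallers and 4 without a call (median -0.86). Foxq1, a forkhead factor of brain endothelium, had 6.54, 7.53 and 8.59 in Wnt arrays, against 10.24, 10.83 and 11.30 in Shh arrays and 10.63, 10.96 and 11.11 in hindbrain arrays. All Shh arrays lay above all Wnt arrays and spread around the hindbrain range (-3.23 ± 0.20, adjusted p = 4.67e-12). Foxf2 (-1.75 ± 0.24) and Sox17 (-1.495 ± 0.19) fell, but not with the endothelial covariate (-0.69, adjusted p = 0.166, and -0.49, adjusted p = 0.114), where 4 factors were lower (median -0.40).

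Genes of fenestrated and peripheral vessels were mixed. Of 16, 7 rose, 3 fell and 6 did not pass, with a median of 0.55. Plvap, which forms the diaphragms of fenestrae and caveolae, had 9.58, 10.34 and 11.59 in Wnt arrays, against 5.98, 7.30 and 8.78 in Shh arrays and 5.72, 6.27 and 6.74 in hindbrain arrays. Every Wnt array exceeded every Shh array, and Shh arrays reached from the hindbrain range upwards (3.07 ± 0.34, adjusted p = 1.13e-07). The water channel Aqp1 rose (3.07 ± 0.42), and the carbonic anhydrase Car4 fell (-3.34 ± 0.44), without a call under the endothelial covariate (-1.72, adjusted p = 0.0816), where 1 member was lower. The 10 genes of caveolae and transcytosis held 4 risers, 3 fallers and 3 without a call (median 0.015). Cavin2 was the strongest riser with only 0.47 ± 0.15, and the count of risers ranged from 1 to 5 when single arrays were left out.

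Endothelial markers themselves were lower in Wnt than in Shh arrays, 15 of 16 with a median of -0.94, and 0 were higher. The ETS factor Erg fell by 1.38 on the log2 scale. The differences of Cdh5 (-0.48 ± 0.11) and Eng (-0.62 ± 0.10) were smaller than this median. The cells were selected through the proteins of both genes, so their differences do not measure the change of other endothelial genes. With the marker mean as a covariate the median of the list was 0.067, as the covariate is built from these genes.

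**Figure D5:**
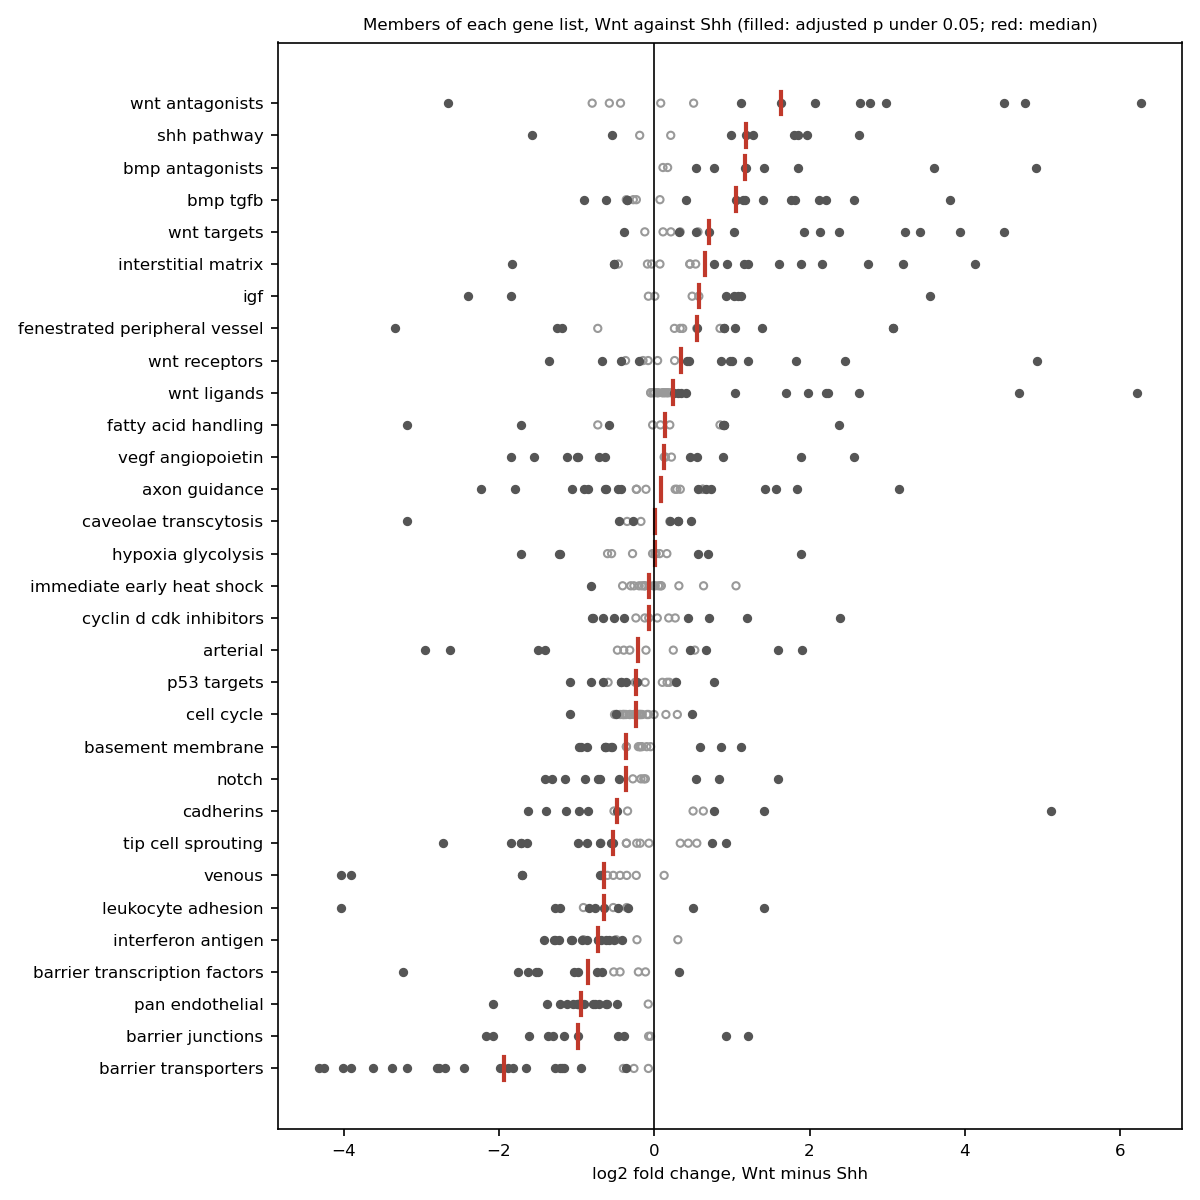
Log2 fold change, Wnt minus Shh (horizontal axis), of each measured member of 31 gene lists (1 list per line, sorted by median). Filled points passed the test, open points did not, and the red bar is the median of the list, highest for Wnt antagonists (1.63) and lowest for barrier transporters (-1.93).

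Growth factors of vessels and their receptors differed in both directions. The 15 genes of VEGF and angiopoietin signalling gave 5 risers, 7 fallers and 3 without a call, with a median of 0.13. Vegfa, the main growth factor of endothelium, had 10.06, 10.32 and 10.88 in Wnt arrays, against 7.68, 8.35 and 9.58 in Shh arrays and 7.95, 8.16 and 8.71 in hindbrain arrays. Wnt arrays stood above all Shh arrays (1.89 ± 0.21), and Shh arrays spread around the hindbrain range. Vegfd rose by 2.57 ± 0.33. Angpt2, which destabilises vessels and is made by sprouting endothelium, had 7.81, 8.86 and 11.23 in Wnt arrays, against 10.28, 10.84 and 11.23 in Shh arrays and 7.38, 8.25 and 8.68 in hindbrain arrays. Shh arrays were uniformly high, while only Wnt array 4 among the Wnt arrays reached the Shh range (-1.85 ± 0.34). Angpt2 (-0.54, adjusted p = 0.507) and Angptl4 (-1.55 ± 0.25, and -0.37, adjusted p = 0.475) did not pass with the endothelial covariate, where 0 genes of the list were lower.

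The 22 genes of tip cells and sprouting held 2 risers, 11 fallers and 9 without a call (median -0.54), with 4 risers without Shh array 2. Apln, the apelin ligand of tip cells, had 7.88, 8.94 and 10.27 in Wnt arrays, against 11.38, 11.71 and 12.01 in Shh arrays and 6.59, 7.11 and 7.63 in hindbrain arrays. The 3 groups did not overlap, with Shh arrays highest and hindbrain arrays lowest (-2.72 ± 0.24, adjusted p = 2.05e-09). Igfbp3 rose between the tumours (0.92 ± 0.22). The vasoactive peptide gene Adm fell (-1.72 ± 0.24), and 5 members were lower with the endothelial covariate. Against hindbrain 15 of these genes were higher in Wnt and 16 in Shh arrays, where 23.2% and 18.9% of all genes were higher.

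The 14 Notch pathway genes gave 3 risers, 7 fallers and 4 without a call (median -0.36). The paired target genes Hey1 and Hey2 went apart. Hey1 had 8.69, 8.84 and 9.90 in Wnt arrays, against 10.20, 10.50 and 10.82 in Shh arrays and 10.04, 10.35 and 10.57 in hindbrain arrays. Hey2 had 9.55, 10.12 and 10.80 in Wnt arrays, against 8.26, 8.57 and 8.82 in Shh arrays and 9.04, 9.64 and 9.96 in hindbrain arrays. Wnt arrays were below Shh arrays for Hey1 and above them for Hey2 (-1.41 ± 0.16 and 1.59 ± 0.15). Under the endothelial covariate 5 Notch genes were higher and 2 lower. The 14 arterial genes held 4 risers, 4 fallers and 6 without a call (median -0.21), with the alkaline phosphatase Alpl higher (1.90 ± 0.26) and endothelin, Edn1, lower (-2.95 ± 0.41, and -1.43, adjusted p = 0.122 with the covariate). The 12 venous genes gave 0 risers, 6 fallers and 6 without a call (median -0.64), and Ackr1, Slc38a5 and Vwf were among the fallers. With the covariate 3 venous and 2 arterial genes were lower. The 13 genes of leukocyte adhesion held 2 risers, 8 fallers and 3 without a call (median -0.65), and with the covariate 0 were higher and 3 lower. Icam1 fell (-1.28 ± 0.25) and E-selectin, Sele, rose (1.41 ± 0.47), but neither passed with the covariate (-1.21, adjusted p = 0.0661, and 0.97, adjusted p = 0.469), and Sele also did not pass without Wnt array 8 (1.16, adjusted p = 0.053) or without Shh array 7 (1.22, adjusted p = 0.0503).

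Most BMP antagonists were higher in Wnt tumours. The 10 antagonists gave 8 risers, 0 fallers and 2 without a call (median 1.17), and in 6 the groups did not overlap. Chrdl1, a secreted BMP-binding protein, had 10.55, 11.40 and 11.81 in Wnt arrays, against 4.67, 6.21 and 8.15 in Shh arrays and 4.55, 5.03 and 5.58 in hindbrain arrays (4.92 ± 0.37, adjusted p = 1.48e-10). Follistatin, Fst, which binds activins, had 9.11, 10.20 and 10.97 in Wnt arrays, against 6.003, 6.31 and 7.48 in Shh arrays and 5.99, 6.67 and 6.86 in hindbrain arrays. Shh and hindbrain arrays shared a low range of Fst, and Wnt arrays stood above it (3.61 ± 0.25). The 19 genes of BMP and TGF-beta signalling held 11 risers, 4 fallers and 4 without a call (median 1.05). Bmp7 rose beside Bmp2 and Tgfb2 (2.58 ± 0.26), and the endothelial receptor Acvrl1 fell (-0.91 ± 0.14). Under the endothelial covariate Acvrl1 did not pass (-0.034, adjusted p = 0.86), 8 genes were higher and 0 lower, and the median was 0.25.

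Genes of the Shh pathway were not uniformly higher in Shh tumours. The 11 measured gave 7 risers, 2 fallers and 2 without a call (median 1.18), and under the endothelial covariate 5 were higher and 2 lower, with a median of 0.485. Gli1, a transcription factor and standard readout of the pathway, was lower in Wnt arrays, with 5.77, 6.23 and 7.84 in Wnt arrays, against 6.95, 7.67 and 9.39 in Shh arrays and 5.92, 6.33 and 7.14 in hindbrain arrays. The ranges overlapped through Wnt array 1, the highest of its group (-1.57 ± 0.32, adjusted p = 0.000312). Hhip, a membrane protein that binds Shh and is a target of the pathway, had 8.13, 10.20 and 10.72 in Wnt arrays, against 6.44, 7.11 and 8.27 in Shh arrays and 4.88, 5.23 and 5.47 in hindbrain arrays. It was higher in Wnt than in Shh arrays with a small overlap (2.64 ± 0.32), and both tumours exceeded hindbrain, where it was dim. Gli3, which mostly acts as a repressor, rose (1.97 ± 0.15) and Sufu, a negative regulator, fell (-0.54 ± 0.094), with 1 of the 2 Sufu probe sets not passing the test (-0.14). Ptch1, the receptor of Shh and a target gene, gave 0.21 ± 0.21 (adjusted p = 0.473).

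The probe sets of genes altered in the models have no known position relative to the altered part, so they check no genotype. Cdkn2c, deleted as Ink4c in the Shh mice, had 8.02, 8.93 and 9.55 in Wnt arrays, against 7.37, 7.81 and 8.20 in Shh arrays and 6.49, 7.29 and 7.71 in hindbrain arrays. It was higher in Wnt than in Shh arrays (1.19 ± 0.19) but did not pass with the endothelial covariate (0.27, adjusted p = 0.509). Ctnnb1, which encodes beta-catenin, gave -0.081 ± 0.072 (adjusted p = 0.415) and the kinase subunit gene Pik3ca -0.083 ± 0.069 (adjusted p = 0.381). Fabp7, whose promoter drives Cre in the Wnt mice, was lower in Wnt than in Shh arrays (-1.72 ± 0.32, and -1.61, adjusted p = 0.0516 with the covariate). Trp53 was not analysed here.

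Few proliferation genes passed the test between the tumours. The 28 cell cycle genes held 1 riser, 2 fallers and 25 without a call (median -0.24), with the riser Ccne1 (0.48 ± 0.11) and the larger fall in Mcm6 (-1.09 ± 0.30), and Ccne1 did not pass with the endothelial covariate (0.065, adjusted p = 0.826). Against hindbrain 27 of the 28 were higher in Wnt and 27 in Shh arrays, where 23.2% and 18.9% of all genes were higher. The count of lower genes was 17 with the covariate, 7 without Shh array 3, 5 without Shh array 6 and 1 to 7 when any single array was left out. Of 15 cyclin D, CDK inhibitor and Myc genes 4 rose, 5 fell and 6 did not pass (median -0.071), with Cdkn1c the largest rise (2.39 ± 0.17) and Mycl a fall (-0.80 ± 0.19). With the covariate 1 was higher. The 16 p53 target genes gave 2 risers, 7 fallers and 7 without a call (median -0.24). Pmaip1, a mediator of apoptosis, fell (-1.08 ± 0.22), and Phlda3 rose (0.77 ± 0.21) but had -0.23 (adjusted p = 0.613) with the covariate. Only 1 p53 target was higher when any 1 of 10 arrays was left out, and 0 were with the covariate.

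The 20 interstitial matrix genes held 10 risers, 3 fallers and 7 without a call (median 0.65), and 8 were higher and 1 lower under the endothelial covariate. The fibril-associated collagen Col12a1 had 11.69, 12.42 and 12.91 in Wnt arrays, against 7.72, 7.97 and 9.34 in Shh arrays and 6.79, 7.58 and 7.91 in hindbrain arrays, and all Wnt arrays exceeded all Shh arrays (4.13 ± 0.24). Fibulin 1, Fbln1, rose (3.20 ± 0.18) and the proteoglycan lumican, Lum, fell (-1.84 ± 0.29). The 19 basement membrane genes gave 3 risers, 8 fallers and 8 without a call (median -0.36), with 0 lower under the endothelial covariate. Tinagl1, a matrix protein of vessels, rose (1.12 ± 0.27), and nidogen, Nid1, fell (-0.97 ± 0.18), though not with the covariate (-0.035, adjusted p = 0.937). The 13 cadherin genes held 3 risers, 6 fallers and 4 without a call (median -0.48), with Cdh6 the strongest riser and Cdh4 the strongest faller, and with the covariate 3 were lower.

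The 24 axon guidance genes gave 7 risers, 9 fallers and 8 without a call (median 0.081). Slit2, a repulsive ligand of Robo receptors, had 8.69, 9.98 and 11.44 in Wnt arrays, against 6.35, 7.03 and 7.22 in Shh arrays and 6.46, 6.65 and 8.07 in hindbrain arrays. All Wnt arrays were above all Shh arrays (3.15 ± 0.30). The semaphorin Sema3c fell (-2.23 ± 0.41), and with the covariate 2 members were lower. The 11 insulin-like growth factor genes held 5 risers, 2 fallers and 4 without a call (median 0.57). Igfbp2, a binding protein, rose (3.56 ± 0.25), and Igf2 and its receptor Igf1r (-1.84 ± 0.15) fell. The 12 genes of fatty acid handling gave 4 risers, 3 fallers and 5 without a call (median 0.14). Fabp5, a fatty acid-binding protein, had 11.48, 12.08 and 12.54 in Wnt arrays, against 8.61, 9.84 and 10.71 in Shh arrays and 5.88, 6.15 and 6.59 in hindbrain arrays. The groups formed 3 separate steps, with Wnt arrays highest and hindbrain arrays lowest (2.38 ± 0.22). With the covariate 1 gene of fatty acid handling was higher.

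Genes of interferon response and antigen presentation were lower in Wnt tumours. The 19 measured held 0 risers, 15 fallers and 4 without a call (median -0.72), among them the guanylate-binding protein Gbp3 (-1.42 ± 0.23) and the deubiquitinase-like Usp18 (-1.29 ± 0.30, and -0.95, adjusted p = 0.227 with the covariate). With the covariate 3 were lower. Against hindbrain 17 of the 19 were lower in Wnt and 12 in Shh arrays, where 22.0% and 18.9% of all genes were lower. Most of the macrophage, myeloid and lymphocyte markers given above were also lower in Wnt than in Shh arrays. A relation between these markers and the interferon genes was not tested. The 17 immediate early and heat shock genes gave 0 risers, 1 faller (Ier2, -0.82 ± 0.19) and 16 without a call (median -0.064), and Ier2 did not pass with the covariate (-0.71, adjusted p = 0.153), while 3 were lower without Wnt array 4. The 15 genes of hypoxia and glycolysis held 3 risers, 3 fallers and 9 without a call, with a median of 0.008 (-0.12 with the covariate), Vegfa the strongest riser and Adm the strongest faller. Of all genes 18.0% were higher and 17.8% lower, so these counts lay near the shares of all genes.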

How the data were processed

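The authors deposited log2 signals of 41345 probe sets on 24 Affymetrix arrays; Partek 6.6 is listed in the submitters' processing notes, and the normalization is not given in the sources used here. Probe sets with exactly 1 gene symbol in the platform annotation (23521) were kept, control probe sets (190) and those with several (1814) or no symbol (15820) were left out, and where a gene had several the brightest on average across the 24 arrays stood for it, giving 22180 genes. Arrays were grouped by their labels, 8 per group, and called biological replicates there. A single 3-group linear model covered the 24 arrays (limma 3.58.1, lmFit and eBayes, in R 4.3.3), with Benjamini-Hochberg adjustment and two-sided tests. The number of arrays limits the precision.

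Scripts were tested on simulated data. Genes were named as the 12 largest non-overlapping rises and falls, the 12 largest on each opposite side, the strongest members of each list and a set of vessel and pathway genes. Atoh1, Cntn2, Dkk4, Lrp8, Nog, Ppard, Slit3, Sp5, Tgfb2, Tnfrsf19, Vwf and Wnt6 were chosen after their values were seen. Members and lists were chosen with earlier results of these data known. The alternatives were the mean of probe sets, quantile normalization, a median shift, dim genes left out, a variance trend, array weights, a replicate block, the endothelial covariate, the tumour arrays alone, every probe set on its own, a stricter adjusted p, and single arrays and Wnt arrays 1 and 8 left out. Markers of red blood cells were not analysed here.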

Additional observations from a re-analysis of the deposited data

Results flagged for a closer look

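Within each group of 8 arrays, the highest or lowest value of each gene named in the report was set against the others with Dixon's test at the 95% level. It marked 43 highest or lowest values in 450 sets of 8, for 150 genes, and chance alone marks about 1 in 20 sets. Values are log2 signals, and none of them was tested for a cause.

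Among Wnt arrays, array 1 was highest in Gli1 (7.84), and array 1 was lowest in Adgrb3 (3.78), Foxf2 (6.81) and Lhx9 (5.47). Array 2 was highest in Itgax (6.49), Slc40a1 (9.11) and Usp18 (9.52), and array 2 was lowest in Bmp7 (10.75). Array 3 was highest in Vegfa (10.88), and array 4 was highest in Adm (8.41), Angpt2 (11.23), Ccl11 (8.47) and Edn1 (9.74). Array 4 was lowest in Jam3 (7.87), and array 5 was highest in Atp13a5 (11.45). Array 5 was lowest in Sostdc1 (10.20), and array 7 was highest in Mylk (10.72).

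Among Shh arrays, array 2 was lowest in Adh1 (8.31), F5 (7.03) and Tnfrsf19 (9.02), and array 3 was lowest in Aqp4 (6.08), Luzp2 (6.17), Snap25 (7.55) and Vtn (12.20). Array 4 was highest in Lhx9 (7.02), Wif1 (9.03) and Wnt16 (7.20), and array 5 was highest in Clic6 (7.60). Array 6 was lowest in Gli3 (6.94), and array 7 was highest in Sufu (10.64) and Marveld3 (6.01). Array 8 was highest in Igf2 (10.88) and Phlda3 (9.08).

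Among hindbrain arrays, array 1 was lowest in Fst (5.99), and array 6 was lowest in Car4 (12.31), Cldn5 (11.69), Igf1r (11.51), Lrp8 (9.95) and Nid1 (10.10). Array 8 was highest in Col14a1 (8.48) and Slc6a11 (9.13), and array 8 was lowest in Fmod (7.30) and Ifi202b (3.68).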

How the results depend on the processing

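With the endothelial marker mean as a covariate, 3499 genes were called between the tumours, 1814 higher and 1685 lower in Wnt than in Shh arrays, and 105 and 72 genes lay on opposite sides of hindbrain with Wnt above and Wnt below. Asking for a log2 fold change of at least 0.5 on both sides left 73 and 97 opposite genes. All other counts over all genes stayed within 1.5 times the reported ones, under 145 of 152 combinations of count and alternative. Leaving out single arrays gave 7401 to 8008 called genes, 3752 to 4083 higher and 3649 to 4001 lower, and 157 to 227 and 176 to 234 opposite genes. With quantile normalization 45.53% of the called genes were higher in Wnt arrays, and with arrays shifted to 1 median 45.79%, against 50.29% as reported. Opposite genes numbered 450 after quantile normalization, of which 344 came from the reported 423, and 501 after the median shift, of which 305 did.

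Replicate numbers are shared between the groups, but correlations of deviations between same-numbered Wnt and Shh arrays ran from -0.0912 to 0.282, so the numbers were not taken to pair the samples. With the replicate number as a block, 7814 genes were called (3920 higher and 3894 lower), and 197 and 215 genes were opposite.

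Of 150 named genes, 147 were called between the tumours and 115 kept call and direction under all 26 alternatives. Values turned sign with the endothelial covariate for Cdh5 (0.18), Eng (0.019), Vtn (0.11) and Phlda3 (-0.23) in Wnt minus Shh, and for Adh1 (0.22), Pfkp (0.12), Slc16a12 (0.061) and Slc24a3 (-0.76) in Wnt minus hindbrain. None of these values passed the test. Cdh5 and Eng are among the 16 markers averaged in the covariate, so their own levels enter it. For the other genes the cause of these changes was not tested. Signal limits the dim genes, whose fold changes have an uncertain size. The size also depended on the probe set. Weaker second probe sets passed in the same direction for Adh1 (-0.29 against -3.20 in Wnt minus Shh), Luzp2 (-0.51 against -3.07) and Foxq1 (-1.61 against -3.23). The same held for Cdh4 (-0.61 against -1.62), Notum (2.49 against 4.51) and Rmst (2.10 against 4.92).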
